A study of Mus musculus with 12 samples.

Results

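NRF2, the transcription factor encoded by Nfe2l2, was followed together with 8 genes of the glutathione and thioredoxin defence that are commonly placed under it: Gclc, Gclm, Slc7a11, Gpx1, Txnrd1, Srxn1, Prdx1 and Nqo1. These 9 genes were taken by symbol from the 16482 genes with a usable symbol, and each of the 9 was in the count table. Conduritol B epoxide (CBE) inhibits glucocerebrosidase, the lysosomal enzyme that is deficient in Gaucher disease, and GZ-667161 inhibits glucosylceramide synthase, which makes the lipid that this enzyme degrades. RNA of whole brain from C57BL/6 mice was measured in 12 samples with a version of MARS-seq made for bulk RNA, a method that reads tags from transcripts' 3′ ends. The 4 PBS samples (replicates 2, 3, 4 and 5) and the 4 samples given CBE and GZ-667161 together (replicates 2, 3, 4 and 5) were of postnatal day 40. The 4 samples given CBE alone comprised replicates 2 and 3 of postnatal day 34 and replicates 4 and 6 of postnatal day 40. The comparisons ask how the antioxidant genes differ after CBE and whether they differ when GZ-667161 is given with it. No group received GZ-667161 alone, so each group with GZ-667161 also carries CBE. CBE gives a chemically induced, whole-animal model, the labels give no dose and no sex, and they do not say whether each sample is a separate mouse. Age or Xist differed within every group, so each group held more than 1 mouse, but each p-value speaks only of spread among samples, which may in part be technical.

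NRF2 is held in the cytoplasm by KEAP1, which targets it for degradation, and oxidants or electrophiles release it. It then enters the nucleus, pairs with a small MAF protein and binds antioxidant response elements near genes for glutathione synthesis, thioredoxin recycling and quinone reduction. In brain this programme is best known from astrocytes, and much of the control of NRF2 acts on its protein, which mRNA levels do not measure.

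The core letters of the antioxidant response element, TGACNNNGC, were searched on both strands in windows from 250 bases before to 50 bases after annotated starts, since NRF2 binds this element. The windows are from RefSeq (GRCm38.p6, the mm10 build) and held 8 of the 9 genes, Gclc being the exception. Of those 8, 5 genes had a match, shown here with 10 flanking bases on each side, written 5′ to 3′ along the strand that holds the match, with the 9 letters of the match in capitals.
Nfe2l2: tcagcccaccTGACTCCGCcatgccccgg
Gclm: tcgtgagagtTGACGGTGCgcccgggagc
Txnrd1: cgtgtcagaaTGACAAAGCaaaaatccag
Srxn1: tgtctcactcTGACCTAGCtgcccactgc
Prdx1: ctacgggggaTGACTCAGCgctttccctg
The Nfe2l2 sequence lies on the minus strand at chr2:75704885-75704913, along the gene, with the match starting at position -240 from the start site. The Gclm sequence is at chr3:122245413-122245441 (position -134), and that of Prdx1 at chr4:116685456-116685484 (position -133). The Txnrd1 sequence is at chr10:82859104-82859132, with the match at position -92 from a start inside the gene span given here. Txnrd1 has 3 windows, and the other 2 held no match. The Srxn1 sequence is at chr2:152105542-152105570, with the match at position 29, within the transcribed part. These 4 are on the minus strand, opposite to their genes. Their positions are those of the match base that comes first along the gene, which is the last capital as written here. No match was in the windows of Gpx1, Nqo1 and Slc7a11, which says only that these letters are not in that window. Over all promoter windows of the same length, 12.4% held the letters, and 14% of all genes in the table had them in a window. A match is a description of the letters and was not tested as a binding site.

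Total counts ran from 1758446 to 6521257 per sample, with the lowest totals in the 2 CBE samples of day 34. Levels are given as CPM, that is counts scaled to a common library size after TMM scaling. Unless another tool or fit is named, tests are edgeR's quasi-likelihood test over the 12623 genes with enough counts, with Benjamini-Hochberg adjustment and a threshold of 0.05. Markers of neurons, astrocytes, oligodendrocytes and microglia were all detected in each group. Xist, the RNA of the inactive X chromosome, was at 7.96 to 25.7 CPM in 5 samples (replicates 4 and 5 of PBS, replicates 2, 3 and 5 of CBE+GZ-667161) and at most 0.555 CPM in the other 7, which include all CBE samples. Sex was therefore unequal between the groups: the Xist-low samples were 2 of PBS, 4 of CBE and 1 of CBE+GZ-667161.

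Gpx1 was the 1 gene of the set that passed the test, rising 1.49-fold in CBE brain over PBS brain. That is 14.3% of the 7 tested genes of the set, a share near the 11.0% of all tested genes. The Gpx1 call ended under 9 of 23 alternative fits, among them the fit with Xist as a term. Nfe2l2 itself had a larger but more variable difference that did not pass. The tested genes of glutathione synthesis (Gclc, Gclm, Slc7a11) and of the thioredoxin system (Txnrd1, Srxn1) had log2 fold changes of -0.15 to 0.10 in CBE, none of which passed. With GZ-667161 added no gene of the set passed in either direction. Nqo1 and Prdx1 had too few counts to be tested.

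Nfe2l2 (chr2:75675513-75704641, minus strand, mm10) encodes the regulator. Its level was 14.55, 14.89, 4.608 and 11.23 CPM in PBS replicates 2, 3, 4 and 5. CBE replicates 2, 3, 4 and 6 had 14.01, 31.66, 14.71 and 23.51 CPM. The CBE+GZ-667161 replicates 2, 3, 4 and 5 had 12.72, 17.33, 21.76 and 21.83 CPM. CBE replicates 3 and 6 were above all PBS samples, whereas CBE replicates 2 and 4 lay within the PBS range. PBS replicate 4 was the lowest of the 12 samples. The mean was 11.3 ± 4.77 CPM in PBS, 21.0 ± 8.33 in CBE and 18.4 ± 4.34 in CBE+GZ-667161 (SD, n = 4 each). The log2 fold change of CBE over PBS was 0.84 ± 0.32 (SE; 95% interval 0.17 to 1.51), with an unadjusted p of 0.018 and an adjusted p of 0.11 in edgeR. For CBE+GZ-667161 over PBS it was 0.65 ± 0.31, with an adjusted p of 0.39 in edgeR. Between the CBE+GZ-667161 and CBE samples the log2 difference was -0.19 ± 0.31, with a 95% interval of -0.85 to 0.47. In the authors' deposited table the log2 difference of Nfe2l2 between CBE and PBS was 0.85 with an adjusted p of 0.0614.

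The plot of each gene by sample shows the overlap between groups.

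**Figure D1:**
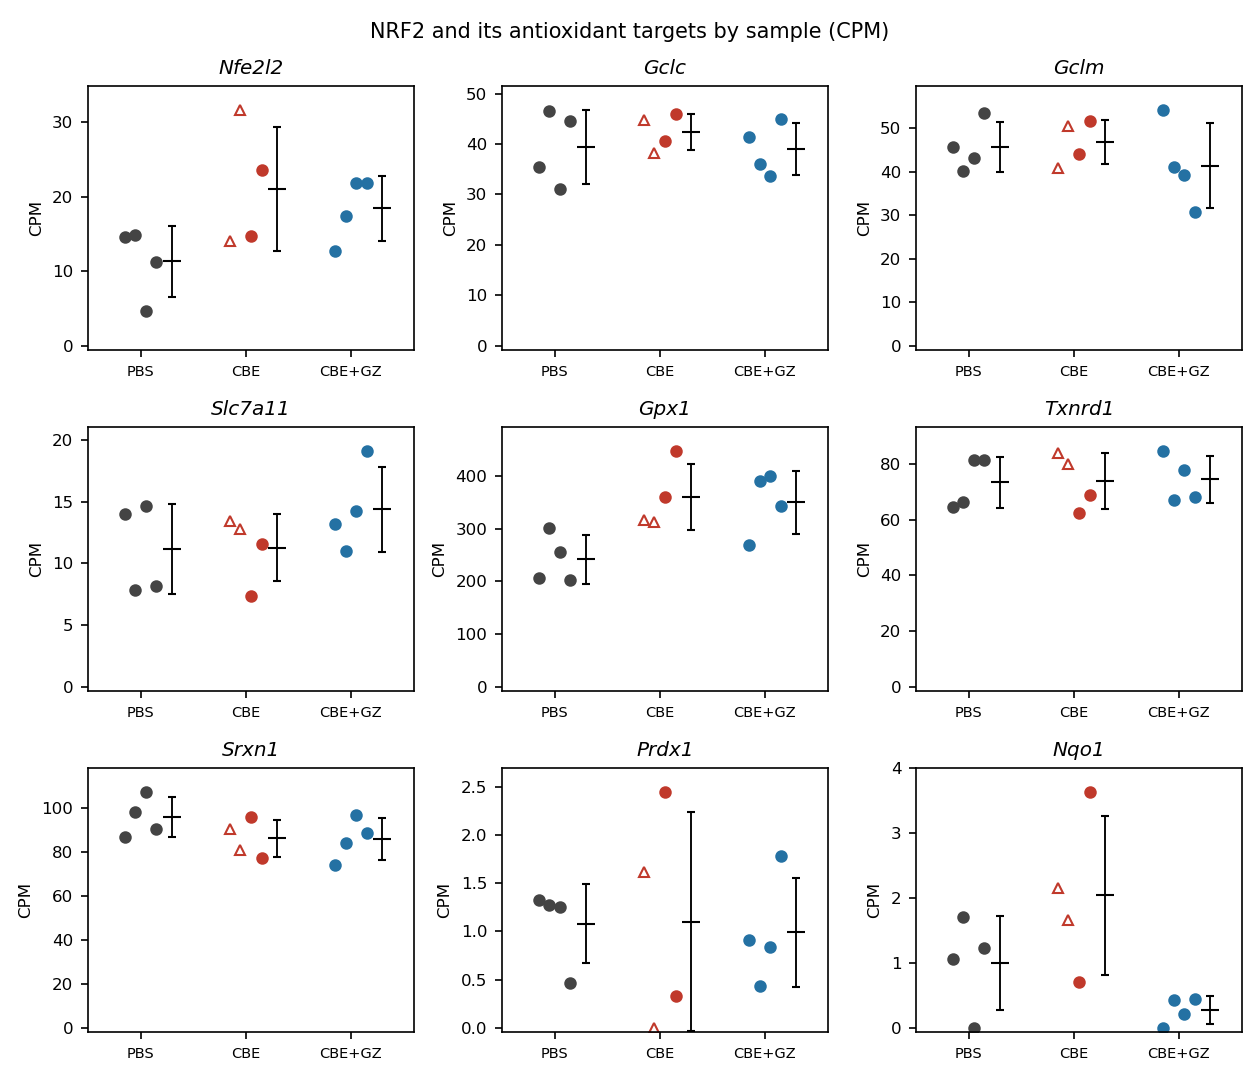
Level of the 9 genes in CPM (vertical axis, linear, from 0) in each of the 12 samples by group (horizontal axis); filled circles are day 40, open triangles are CBE samples of day 34, and the bars beside each group are the mean and SD of 4 samples. Gpx1 lies at 313.3 CPM or higher in all CBE samples and at 301.5 CPM or lower in all PBS samples, while Gclc, Gclm, Slc7a11, Txnrd1 and Srxn1 overlap between CBE and PBS.

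Gclc (chr9:77754535-77794485, plus strand) encodes the catalytic subunit and Gclm (chr3:122245557-122270732, plus strand) the modifier subunit of glutamate-cysteine ligase, the enzyme that limits glutathione synthesis. Gclc was at 35.45, 46.59, 31 and 44.61 CPM in PBS, at 44.73, 38.32, 40.62 and 46.02 CPM in CBE, and at 41.35, 35.95, 33.69 and 44.99 CPM in CBE+GZ-667161, each in replicate order. All CBE samples lay within the range of the PBS samples. The log2 fold change of Gclc in CBE over PBS was 0.10 ± 0.16 (95% interval -0.23 to 0.42), with an adjusted p of 0.75 in edgeR. In CBE+GZ-667161 it differed by -0.04 ± 0.15 from PBS and by -0.13 ± 0.16 from CBE, with adjusted p of 0.96 and 0.72.

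Gclm was at 45.77, 40.21, 43.15 and 53.53 CPM in PBS, at 40.96, 50.54, 44.12 and 51.65 CPM in CBE, and at 54.3, 41.15, 39.34 and 30.74 CPM in CBE+GZ-667161. The CBE samples again fell inside the PBS range, and the CBE+GZ-667161 samples held both the highest and the lowest value of the 12. Its log2 fold change in CBE over PBS was 0.03 ± 0.17 (95% interval -0.32 to 0.38). For CBE+GZ-667161 the log2 difference of Gclm was -0.14 ± 0.16 from PBS and -0.17 ± 0.17 from CBE, with adjusted p of 0.83 and 0.66 in edgeR.

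Slc7a11 (chr3:49892526-50443614, minus strand) encodes xCT, the light chain of the cystine-glutamate exchanger that brings in cystine for glutathione. It was at 14.02, 7.872, 14.66 and 8.153 CPM in PBS, at 13.47, 12.77, 7.353 and 11.59 CPM in CBE, and at 13.18, 11.05, 14.23 and 19.16 CPM in CBE+GZ-667161. The 3 groups overlapped, and CBE+GZ-667161 replicate 5 was the highest sample. The log2 fold change was 0.03 ± 0.28 for CBE over PBS and 0.38 ± 0.27 for CBE+GZ-667161 over PBS, with adjusted p of 0.96 and 0.64 in edgeR. The counts of Slc7a11 were low, and the 95% interval of the difference between CBE and PBS, -0.56 to 0.63, leaves room for a change of the size seen in Gpx1.

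Gpx1 (chr9:108338903-108340343, plus strand) encodes cytosolic glutathione peroxidase, a selenoprotein that uses glutathione to reduce hydrogen peroxide. Its level was 206.9, 301.5, 256.8 and 202.3 CPM in PBS replicates 2, 3, 4 and 5. It was 316.9 and 313.3 CPM in the day 34 CBE replicates 2 and 3, and 361.4 and 448.7 CPM in the day 40 CBE replicates 4 and 6. The CBE+GZ-667161 replicates 2, 3, 4 and 5 had 268.8, 390.3, 400.8 and 342.6 CPM. Every CBE sample was above every PBS sample, although the gap between the lowest CBE and the highest PBS sample was small. In the CBE+GZ-667161 group replicate 2 lay within the PBS range and the other 3 replicates lay above it.

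The Gpx1 mean was 241.9 ± 46.8 CPM in PBS and 360 ± 63 CPM in CBE (SD, n = 4), a log2 fold change of 0.58 ± 0.16 (SE; fold 1.49, 95% interval 1.18 to 1.89) with an adjusted p of 0.028 in edgeR. Gpx1 was thus 1 of 7 tested genes of the set that passed (14.3%), a share near the 11.0% of all tested genes that passed in this comparison. In 8.61% of all tested genes every CBE sample was above every PBS sample. Over all 23 alternatives the log2 fold change ran from 0.4 to 0.74 and the adjusted p from 0.011 to 0.28. The call ended under 9 of these fits. Among them, the log2 fold change was 0.44 with Xist as a term (adjusted p = 0.13 in edgeR) and 0.50 in the Xist-low samples alone (adjusted p = 0.22), and beyond these fits the part of sex in the difference was not tested. Leaving out CBE replicate 4 or 6, or PBS replicate 2, 4 or 5, gave log2 fold changes of 0.46 to 0.60 and adjusted p of 0.057 to 0.11 in edgeR. The authors' deposited table gives a log2 difference of 0.57 for Gpx1 with an adjusted p of 0.0103.

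In CBE+GZ-667161 brain the Gpx1 mean was 350.6 ± 60.1 CPM (SD, n = 4), a log2 fold change over PBS of 0.54 ± 0.16 that did not pass (adjusted p = 0.09 in edgeR). The PBS samples are shared with the CBE comparison, so these 2 fold changes are not independent. The direct difference between CBE+GZ-667161 and CBE was -0.04 ± 0.16 on the log2 scale, with a 95% interval of -0.38 to 0.30, and the groups overlapped. The authors' deposited table gives Gpx1 in CBE+GZ-667161 over PBS a log2 difference of 0.53 and an adjusted p of 0.0472, on the other side of the threshold. In edgeR it passed under 4 of 24 alternatives. Without PBS replicate 3 the log2 fold change was 0.68 (adjusted p = 0.034), and without CBE+GZ-667161 replicate 2 it was 0.65 (adjusted p = 0.028). With Xist as a term it was 0.63 (adjusted p = 0.033).

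The summed levels of cell type markers also differed between the groups of these whole-brain samples. The summed level of 12 microglial markers was 1015 to 1121 CPM in PBS, 3582 to 5455 CPM in CBE and 2238 to 3901 CPM in CBE+GZ-667161. In each treated group 8 of the 12 rose (66.7%). Of all tested genes 6.95% rose in CBE and 3.11% in CBE+GZ-667161. The summed level of 9 astrocyte markers was 3804 to 4407, 4973 to 5280 and 4098 to 4549 CPM in PBS, CBE and CBE+GZ-667161, the order used below. Of these 9, 4 rose and 0 fell in CBE (44.4%), and 1 rose in CBE+GZ-667161 (11.1%). The markers were uneven: mean Gfap went from 81.0 CPM in PBS to 791 CPM in CBE, and mean Slc1a2 from 2010 to 1751 CPM. The summed level of 6 erythroid genes, which mark blood cells that also carry Gpx1, was 1964 to 4039, 1249 to 1734 and 1416 to 3914 CPM. The summed level of 9 neuronal markers was 6183 to 6239, 4358 to 5549 and 5047 to 6080 CPM. In CBE 6 of the 9 fell (66.7%, beside 11.0% of all tested genes that passed in either direction). The summed level of 8 oligodendrocyte markers was 5732 to 7096, 2942 to 6024 and 3586 to 8264 CPM. Of these 8, 0 passed in CBE in edgeR, with 6 at an unadjusted p under 0.05, beside 24.8% of all tested genes. None of these 5 lists had a gene at 0 throughout a group. The part of these cell types in the Gpx1 difference was not tested, and in bulk RNA more cells of a type and more RNA per cell cannot be told apart.

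Among all tested genes, the profiles closest to that of Gpx1 over the 12 samples were those of Pigp, Igbp1 and Slc2a8, with root mean square differences of 0.142, 0.157 and 0.174 in centred log2 CPM. Gpx1 itself varied by 0.346 around its own mean on that scale. In CBE over PBS the log2 fold change was 0.56 ± 0.16 for Pigp and 0.66 ± 0.15 for Igbp1, with adjusted p of 0.033 and 0.011 in edgeR. For Slc2a8 it was 0.25 ± 0.16, with an adjusted p of 0.34. Genes were chosen here for their likeness to Gpx1, so their fold changes add no evidence.

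Txnrd1 (chr10:82833951-82897712, plus strand) encodes the cytosolic thioredoxin reductase, which passes electrons from NADPH to thioredoxin. It was at 64.56, 66.17, 81.27 and 81.22 CPM in PBS, at 84.07, 79.98, 62.33 and 68.87 CPM in CBE, and at 84.75, 67.14, 77.64 and 68.16 CPM in CBE+GZ-667161. The group means of 73.3 ± 9.19, 73.8 ± 9.99 and 74.4 ± 8.35 CPM (SD, n = 4) differed by less than the spread between samples. The log2 fold change of CBE over PBS was 0.005 ± 0.14, and its 95% interval in fold, 0.822 to 1.23, leaves out the fold estimated for Gpx1. CBE+GZ-667161 differed in Txnrd1 by 0.03 ± 0.13 from PBS and by 0.02 ± 0.14 from CBE.

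Srxn1 (chr2:152105516-152111376, plus strand) encodes sulfiredoxin, which restores overoxidised peroxiredoxins. It was at 87.05, 98.29, 107.7 and 90.76 CPM in PBS, at 90.54, 81.09, 96.29 and 77.48 CPM in CBE, and at 74.07, 84.47, 96.9 and 88.65 CPM in CBE+GZ-667161. All groups overlapped. The log2 fold change was -0.15 ± 0.12 for CBE over PBS and -0.16 ± 0.12 for CBE+GZ-667161 over PBS, with adjusted p of 0.49 and 0.68 in edgeR. Between CBE+GZ-667161 and CBE it was -0.006 ± 0.12.

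Prdx1 (chr4:116685544-116700822, plus strand) encodes a cytosolic peroxiredoxin that reduces peroxides with electrons from thioredoxin. It had 5, 6, 3 and 3 counts in PBS, 3, 0, 7 and 1 in CBE, and 4, 2, 4 and 4 in CBE+GZ-667161. The 3′ end of its coding transcripts matched 3 pseudogenes at 90% identity or more over at least 100 bases, and none of these pseudogenes was in the count table. The sources used here do not say how reads shared with them were counted, so the low counts of Prdx1 are uncertain. The pooled count of 11 in CBE against 17 in PBS gave a ratio of 1.18 per library size, with a 95% counting interval of 0.499 to 2.67, so no difference was detectable at this depth. No other gene of the set had such a match.

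Nqo1 (chr8:107388225-107403206, minus strand) encodes the quinone reductase that is widely used as a readout of NRF2. It had 4, 8, 0 and 8 counts in PBS replicates 2, 3, 4 and 5, and 4, 3, 2 and 11 counts in CBE replicates 2, 3, 4 and 6. The CBE+GZ-667161 replicates 2, 3, 4 and 5 had 0, 2, 1 and 1 counts. Per library size this was 0 to 1.70 CPM in PBS, 0.700 to 3.64 CPM in CBE and 0 to 0.446 CPM in CBE+GZ-667161. The CBE+GZ-667161 samples all lay below the CBE samples and overlapped with PBS replicate 4 alone. CBE replicate 4, the lowest of its group, and CBE+GZ-667161 replicate 3 both had 2 counts and were set apart only by library size. Of the tested genes, which do not include Nqo1, 3.98% had all CBE+GZ-667161 samples below all CBE samples.

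Summed over samples, Nqo1 had 20 counts in PBS, 20 in CBE and 4 in CBE+GZ-667161. The level in CBE+GZ-667161 was 8.42-fold below that in CBE, with a 95% counting interval of 2.82 to 33.9, and the ratio to PBS was 0.217 (0.0538 to 0.646). CBE replicate 6 held 11 of the 20 CBE counts, and without it the level was 5.54-fold below (1.55 to 24.6). With each other sample left out in turn the fold was 6.11 to 11.99. These intervals cover counting error only. When genes of low count were kept, edgeR gave Nqo1 a log2 difference of -2.86 ± 0.88 between CBE+GZ-667161 and CBE with an unadjusted p of 0.0043 and an adjusted p of 0.13, so the difference did not pass. The authors' deposited table gives Nqo1 a log2 difference of -3.03 with an adjusted p of 0.077 in that comparison.

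**Figure D2:**
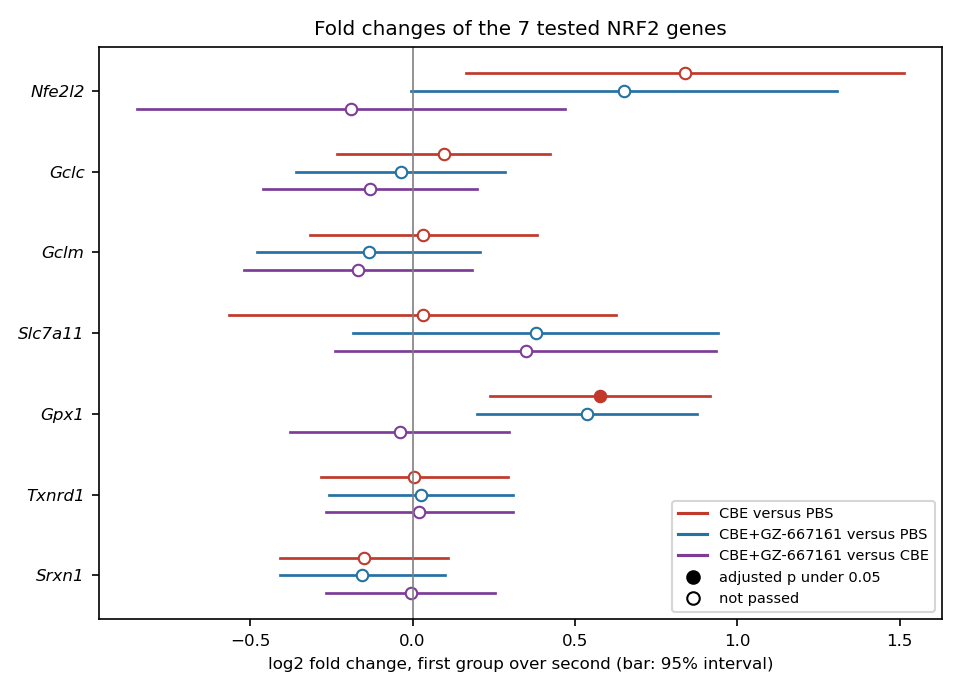
Log2 fold change (horizontal axis) of the 7 tested genes in 3 comparisons, each as the first group over the second; points are edgeR estimates, bars are 95% intervals, and a filled point passed an adjusted p of 0.05. Only Gpx1 in CBE over PBS is filled, at 0.58, and the intervals of Txnrd1 and Srxn1 are the narrowest.

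With GZ-667161 added, 0 of the 7 tested genes passed against PBS in edgeR, where 3.45% of all tested genes passed, and 1 of the 7 (Gpx1) had an unadjusted p under 0.05. Against CBE, 0 of the 7 passed in edgeR, with none at an unadjusted p under 0.05, where 1.28% of all tested genes passed. DESeq2 and limma-voom also called 0 of the 7 in either comparison. The 95% intervals of the difference from CBE were wide for Nfe2l2 and Slc7a11, at -0.24 to 0.94 for the latter, so a fall of Nfe2l2 or a rise of Slc7a11 as large as the Gpx1 rise in CBE lies within them.

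The CBE samples of day 40 and day 34, 2 of each, were compared in a fit with 4 groups. None of the 7 genes passed in edgeR, DESeq2 or limma-voom, and none had an unadjusted p under 0.05, where 0.613% of all tested genes passed. Txnrd1 was at 62.33 and 68.87 CPM on day 40 and at 84.07 and 79.98 CPM on day 34, a log2 difference of -0.35 ± 0.18 with an adjusted p of 0.38 in edgeR. Gpx1 averaged 405 CPM on day 40 and 315.1 CPM on day 34, a log2 difference of 0.34 ± 0.21 with an adjusted p of 0.48. Both days share the PBS samples of day 40 as their reference. Against these, the log2 fold change of Gpx1 was 0.74 ± 0.18 on day 40, with an adjusted p of 0.012 in edgeR and 14.2% of all tested genes passing. On day 34 it was 0.40 ± 0.18, with an adjusted p of 0.27 and 5.91% of all tested genes passing. For Nfe2l2 the 2 values were 0.71 and 0.99, with adjusted p of 0.24 and 0.2.

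Beyond the 9 genes, 83 other antioxidant genes in 5 lists were tested. In CBE over PBS 17 of them rose and 0 fell (20.5% in all), beside 11.0% of all tested genes and 6.95% counted for rises alone. At an unadjusted p under 0.05 there were 25 (30.1%, beside 24.8% of all tested genes). DESeq2 called 19 (22.9%, beside 12.4%) and limma-voom 14 (16.9%, beside 11%). The median log2 fold change was 0.18, beside -0.015 over all tested genes. Microglial markers moved with these genes as given above, and their part was not tested.

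**Figure D3:**
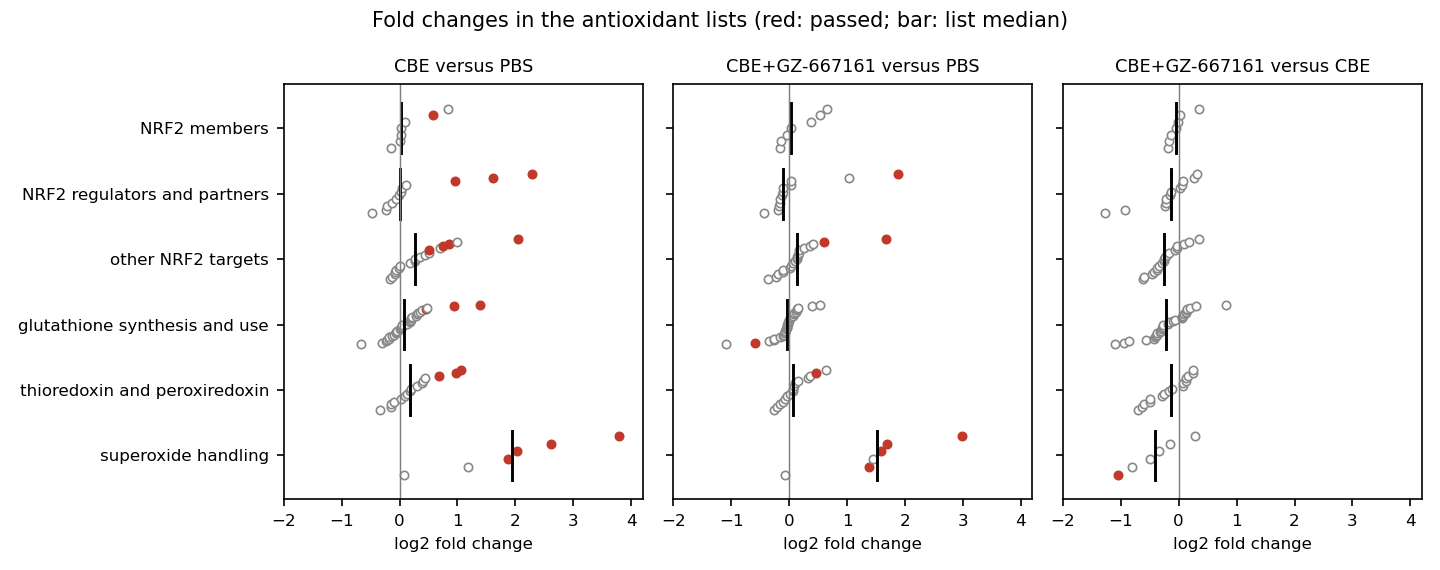
Log2 fold changes (horizontal axis) of every tested gene in the 9-gene set and the 5 lists, for 3 comparisons; red points passed an adjusted p of 0.05, black bars are list medians, and height within a row only separates the points. In CBE over PBS the superoxide list has its median at 1.95 and 4 of 6 genes in red, while the 9-gene set has its median at 0.033 and 1 red point. In that comparison 11.0% of all tested genes passed.

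Of 12 regulators and partners of NRF2, 3 rose in CBE and 0 fell, with a median log2 fold change of 0.009. That is 25% of the list, beside 11.0% of all tested genes. In this list DESeq2 called 3 genes (25%, beside 12.4% of all tested genes) and limma-voom 1 (8.33%, beside 11%). Keap1, the repressor, was named for its role and had a log2 fold change of 0.04 with an adjusted p of 0.89 in edgeR. The small MAF genes Mafk and Maff, whose proteins pair with NRF2, rose by 0.96 ± 0.26 (adjusted p = 0.024 in edgeR) and by 2.29 ± 0.65 (adjusted p = 0.03). Mafk was at 10.78, 14.44, 9.454 and 9.933 CPM in CBE and at 6.085 CPM or lower in PBS. Maff was uneven, at 8.084, 2.777, 16.11 and 0.9933 CPM in CBE replicates 2, 3, 4 and 6, and overlapped with PBS. Trim21, an interferon-inducible ubiquitin ligase, rose by 1.61 ± 0.47 (adjusted p = 0.035).

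The list of other NRF2 targets had 4 of 19 tested genes higher and 0 lower in CBE, with a median of 0.27. That is 21.1% of the list, beside 11.0% of all tested genes. Hmox1, which encodes the heme oxygenase that degrades heme, was at 1.852, 5.106, 4.189 and 3.23 CPM in PBS. It was at 16.17, 13.89, 15.06 and 14.57 CPM in CBE and at 10.22, 13.21, 9.418 and 13.36 CPM in CBE+GZ-667161. Both treated groups lay above all PBS samples, which for CBE was so in 8.61% of all tested genes. The highest CBE+GZ-667161 sample was just below the lowest CBE sample, an order found in 3.98% of all tested genes. The log2 fold change over PBS was 2.05 ± 0.28 in CBE and 1.67 ± 0.27 in CBE+GZ-667161, with adjusted p of 8.9e-05 and 0.001 in edgeR. For CBE+GZ-667161 it was 1.39 in the Xist-low samples (adjusted p = 0.48) and 1.76 in the Xist-high samples (adjusted p = 0.055).

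Ftl1 and Fth1, the light and heavy chains of the iron store ferritin, rose by 0.85 ± 0.15 and 0.51 ± 0.11 in CBE. Ftl1 went from a mean of 57.5 to 103 CPM and Fth1 from 4882 to 6973 CPM. Ferritin genes have many processed copies in the genome, so reads could be shared with them. Ephx1, an epoxide hydrolase, rose by 0.75 ± 0.23 (adjusted p = 0.04 in edgeR), with overlap between the groups.

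In the glutathione list 3 of 30 genes rose and 0 fell in CBE, and the median was 0.08. That is 10% of the list, a share near the 11.0% of all tested genes. Mgst1, a membrane-bound glutathione transferase, had the largest rise of the 3, by 1.39 ± 0.22 (adjusted p = 4e-04 in edgeR). Its CBE samples split into replicates 2 and 6 at 70.6 and 68.21 CPM and replicates 3 and 4 at 38.32 and 35.37 CPM, all above the PBS maximum of 22.55 CPM. The secreted peroxidase gene Gpx3 rose by 0.94 ± 0.26, and Gsto1, an omega-class glutathione transferase, by 0.46 ± 0.12.

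In the thioredoxin list 3 of 16 genes rose and 0 fell in CBE in edgeR (18.8%, beside 11.0% of all tested genes), with a median of 0.18. DESeq2 called 4 genes of the list (25%, beside 12.4%) and limma-voom 3 (18.8%, beside 11%). The authors' deposited table gives Txn2, a gene of this list, a log2 difference of -0.34 in CBE over PBS with an adjusted p of 0.0428. Prdx6, a peroxiredoxin of astrocytes that reduces phospholipid peroxides, was at 603, 473.6, 550.8 and 501.9 CPM in PBS and at 1164, 1045, 987.5 and 965.2 CPM in CBE, with no overlap. Its log2 fold change was 0.97 ± 0.12, with an adjusted p of 4e-05 in edgeR. Txnip, which inhibits thioredoxin, rose by 1.06 ± 0.19, and Msrb1, a selenoprotein that reduces oxidised methionine, by 0.68 ± 0.16.

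In the superoxide list 4 of 6 genes rose in CBE, and 0 fell (66.7%, beside 11.0% of all tested genes), with a median of 1.95. Among them Cybb, Cyba and Ncf1 encode subunits of the phagocyte NADPH oxidase, an enzyme that makes superoxide and does not remove it. Cybb, its catalytic subunit, rose by 3.79 ± 0.42, Cyba by 2.62 ± 0.20 and Ncf1 by 1.87 ± 0.22. These genes are expressed by microglia, whose summed markers rose in the same samples.

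In CBE+GZ-667161 over PBS 8 of the 83 genes rose and 1 fell (10.8%, beside 3.45% of all tested genes), with a median of 0.014. The regulators had 1 gene higher (Trim21, 1.88 ± 0.44), the other targets 2 higher (Hmox1 and Ftl1) and the thioredoxin list 1 higher (Prdx6). The superoxide list had 4 genes higher, among them Cybb by 2.98 ± 0.42, Cyba by 1.58 ± 0.20 and Ncf1 by 1.38 ± 0.22. The gene that fell was Gstm5, a mu-class glutathione transferase, whose relatives are close in sequence. Gstm5 was at 178.9, 195.7, 176.4 and 173.4 CPM in PBS and at 130.2, 136.7, 94.8 and 118 CPM in CBE+GZ-667161, with a log2 fold change of -0.59 ± 0.14 (adjusted p = 0.017 in edgeR). All its CBE+GZ-667161 samples lay below all PBS samples, as in 3.12% of all tested genes.

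**Figure D4:**
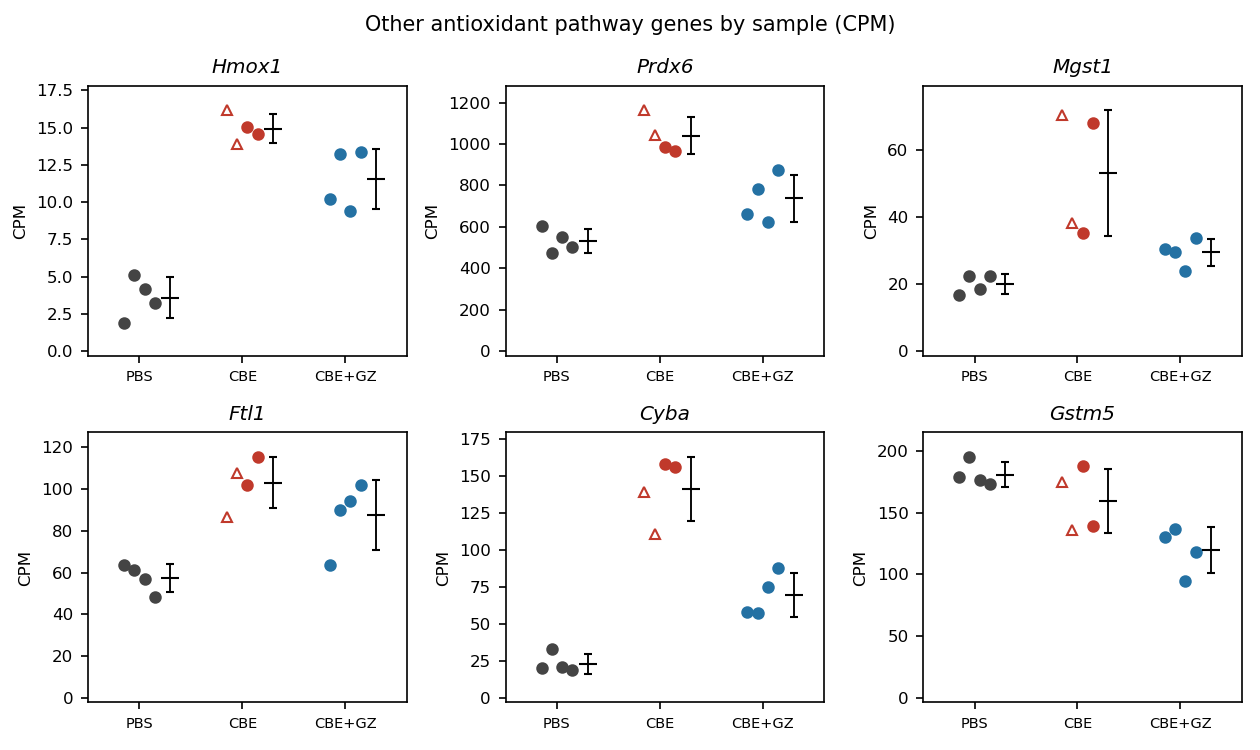
Level in CPM (vertical axis, linear, from 0) of 6 antioxidant and oxidase genes outside the 9-gene set in each sample by group; circles are day 40, open triangles are CBE samples of day 34, and bars are the mean and SD of 4 samples. Hmox1, Prdx6, Mgst1, Ftl1 and Cyba have all CBE samples above all PBS samples, as in 8.61% of all tested genes. Gstm5 has all CBE+GZ-667161 samples below all PBS samples, as in 3.12% of all tested genes.

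Between CBE+GZ-667161 and CBE, 1 of the 83 genes passed in edgeR (1.2%, beside 1.28% of all tested genes). That gene was Cyba, at 57.94, 57.4, 74.92 and 87.76 CPM with GZ-667161 and at 139.6, 111.1, 158.6 and 156.3 CPM in CBE alone. All CBE+GZ-667161 samples of Cyba were below all CBE samples, and its log2 difference was -1.04 ± 0.19 (adjusted p = 0.016). At an unadjusted p under 0.05 there were 23 of the 83 (27.7%, beside 16.5% of all tested genes). DESeq2 called 8 (9.64%, beside 3.78%) and limma-voom 2 (2.41%, beside 1.66%). The median log2 difference was -0.21, beside 0.008 over all tested genes.

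For the 4 lists in which edgeR called 0 genes, the counts at an unadjusted p under 0.05 were 3 of 12 regulators, 4 of 19 other targets, 8 of 30 glutathione genes and 5 of 16 thioredoxin genes (25%, 21.1%, 26.7% and 31.2%, beside the 16.5% of all tested genes). DESeq2 called 0, 1, 3 and 3 of them and limma-voom 0, 0, 0 and 1. Prdx6 was at 664.3, 785.1, 623.2 and 876.2 CPM with GZ-667161, below all CBE samples, with a log2 difference of -0.50 ± 0.12 and an adjusted p of 0.053 in edgeR. It passed in DESeq2 (adjusted p = 0.0048), in limma-voom (adjusted p = 0.038) and in edgeR without CBE+GZ-667161 replicate 5 (adjusted p = 0.023). Taldo1, an enzyme of the pentose phosphate pathway, differed from CBE by 0.35 ± 0.10, with an adjusted p of 0.078 in edgeR. Fth1 differed by -0.25 and Sqstm1, which encodes a KEAP1-binding autophagy receptor, by -0.23 ± 0.09, with adjusted p of 0.27 and 0.22. Without the day 34 CBE samples Taldo1 and Fth1 passed, with adjusted p of 0.049 and 0.036. Gstm1 differed by -0.18, Hagh by 0.12, Prdx2 by 0.07 and Nfe2l1 by 0.016, with adjusted p of 0.55 to 0.96.

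Of the 17 calls in CBE over PBS, 8 held under every alternative run, among them Hmox1, Ftl1, Mgst1, Prdx6, Cyba, Cybb and Ncf1. Fth1 was lost without the day 40 CBE samples (0.34, adjusted p = 0.13 in edgeR), Txnip in the Xist-low samples alone (adjusted p = 0.062), and the other 7 under more than 1 alternative. Maff was at 1.38 without CBE replicate 4 (adjusted p = 0.23), and Ephx1 at 0.48 without CBE replicate 6 (adjusted p = 0.19). Other samples whose omission ended a call in CBE over PBS were, for Mafk, PBS 5 and CBE 3 (adjusted p = 0.072 and 0.064), for Gsto1, PBS 2 and CBE 4 (0.052 and 0.065), and for Msrb1, CBE 6 (0.05). For Gpx3 they were PBS 4 and 5 and CBE 3 and 4 (0.053 to 0.098), and for Trim21 PBS 2, 4 and 5 and CBE 2, 3 and 6 (0.066 to 0.1). For Maff they were also PBS 2, 4 and 5 and CBE 2 (0.06 to 0.088), and for Ephx1 all 4 PBS samples, CBE 4 and replicates 3 and 5 of CBE+GZ-667161 (0.051 to 0.11). Of the 9 calls in CBE+GZ-667161 over PBS, that of Cyba held under every alternative. Omitting 1 sample ended the call of Trim21 (PBS 2, 4 or 5 or CBE+GZ-667161 3 or 4, adjusted p = 0.064 to 0.099) and of Ftl1 (PBS 3, 4 or 5 or CBE+GZ-667161 3, 4 or 5, 0.054 to 0.12). It also ended that of Prdx6 (PBS 3, 4 or 5, CBE 2, or CBE+GZ-667161 3 or 5, 0.052 to 0.15). The fall of Gstm5 did not pass without PBS replicate 3 (adjusted p = 0.063) or CBE+GZ-667161 replicate 4 (adjusted p = 0.074). The difference of Cyba between CBE+GZ-667161 and CBE did not pass under 8 of 23 alternatives, among them those that leave out replicate 4 or 6 of CBE, or replicate 3 or 4 of CBE+GZ-667161.

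With Xist as a term, 5 of the 17 calls in CBE over PBS did not pass in edgeR: Mafk, Maff, Trim21, Ephx1 and Gpx3, with adjusted p of 0.078 to 0.12. In the Xist-low samples alone, 4 of CBE and 2 of PBS, these 5 and Gsto1, Txnip and Msrb1 did not pass, with adjusted p of 0.062 to 0.31. Their log2 fold changes there stayed positive, from 0.59 for Gsto1 to 1.997 for Maff. In CBE+GZ-667161 over PBS the term ended the call of Prdx6 (adjusted p = 0.086). In the Xist-low samples, 1 of CBE+GZ-667161 and 2 of PBS, the 2 calls left were Cyba and Cybb. In the Xist-high samples, 3 and 2, the 2 calls left were Cyba and Ncf1. The lone CBE+GZ-667161 sample is assumed there to vary like the other groups. Trim21, Ftl1, Prdx6 and Gstm5 passed in neither subset, with adjusted p of 0.15 to 0.91, and Cyba between CBE+GZ-667161 and CBE had an adjusted p of 0.17 with the term and 0.3 in the Xist-low samples.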

How the data were processed

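RNA from 12 whole-brain samples was measured by a bulk form of MARS-seq, per the labels' protocols. The deposited table of raw counts per gene symbol was used for every test. The deposited normalized signal was the raw counts times 1 constant in each library (largest relative departure 6.58e-10) and served only for that check. The authors' deposited table of comparisons gives a log2 fold change and an adjusted p-value per gene, and the sign of its log2 values was turned so that positive means higher in the first group named. The submitters' processing notes name HISAT 0.1.6, HTSeq, cutadapt, DESeq2 and the build mm10. Their roles, the annotation, the use of strand and the handling of molecular identifiers are not given in the sources used here. Gene overlaps matter for that reason: Gclm, Nfe2l2, Slc7a11 and Txnrd1 overlap other annotated genes.

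Of 16505 entries, 23 had a date in place of a symbol (0.266% to 0.347% of a library's counts) and were left out. Low genes were removed by filterByExpr (minimum count 10, minimum total 15), and the rest were tested with edgeR 4.0.16 (TMM, quasi-likelihood test) in a fit of the 3 groups, or of 4 groups with CBE divided by age (13372 genes tested). p-values were adjusted over all tested genes. Pooled count ratios carry exact 95% intervals. The named genes were all 9 members, in each list and comparison up to 4 passing genes of smallest p or else the 2 of highest mean level, and the 3 profiles closest to each member that passed (log2 CPM, prior count 2). Some genes that this rule took are not reported here. The members and lists were chosen with earlier results of these data known. Alternatives were other scaling factors, no filter, DESeq2 1.42.0, limma-voom (limma 3.58.1), fewer groups or samples, a replicate block, Xist as a term, and each sample left out. The Xist-low (at most 1 CPM) and Xist-high subsets were chosen after seeing the data. The fits were tested on simulated data. Gene positions are from GENCODE M21 for mm10. R 4.3.3 was used for the fits, and Python 3.11.15 (pandas 2.3.3, matplotlib 3.10.9) for tables and plots.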

Additional observations from a re-analysis of the deposited data

Results flagged for a closer look

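Prdx1 in PBS replicate 5 was at 0.4615 CPM, far from the other PBS samples at 1.257 to 1.323 CPM. Its gap to the nearest sample was a share of 0.923 of the whole range of the group, above Dixon's 95% critical value for 4 samples. The value rests on 3 counts. In all, 27 sets of 4 samples (9 genes in 3 groups) were examined, and chance marks about 1 in 20 such sets.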

How the results depend on the processing

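Counts are of genes past an adjusted p of 0.05. Of 553 values of the 9 genes under alternatives, 540 stayed on the same side of the threshold, 9 lost a call, 4 gained one and 0 reversed a call, while 60 that passed in neither fit changed sign. In CBE over PBS the member count of 1 (Gpx1) became 0 with the replicate block (log2 fold change 0.43, adjusted p = 0.079 in edgeR), without the day 40 CBE samples, with Xist as a term and in the Xist-low samples alone, and was 0 to 1 with each sample left out. In CBE+GZ-667161 over PBS the member count of 0 became 1 with the replicate block (Gpx1 0.54, adjusted p = 0.028) and with Xist as a term, and was 0 to 1 with each sample left out (1 without PBS replicate 3 or CBE+GZ-667161 replicate 2).

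Pathway genes passing in CBE over PBS numbered 17, but 10 without the day 40 CBE samples, 9 in the Xist-low samples and 12 to 17 with each sample left out. In CBE+GZ-667161 over PBS they numbered 9, but 2 in the Xist-low and 2 in the Xist-high samples, and 6 to 9 with each sample left out. Between CBE+GZ-667161 and CBE the count of 1 became 2 with DESeq2 size factors in edgeR, 8 with DESeq2, 2 with limma-voom and 6 without the day 34 CBE samples. It became 0 with the replicate block, without the day 40 CBE samples, with Xist as a term and in the Xist-low samples, and 0 to 6 with each sample left out (6 without CBE replicate 3, 5 without CBE+GZ-667161 replicate 5, 0 without replicate 4 or 6 of CBE, or 3 or 4 of CBE+GZ-667161). Between days 85 pathway genes were tested, and the count of 0 became 1 with DESeq2 (1.18%, beside 1.79% of all tested genes). At an unadjusted p under 0.05 in edgeR there were 16 of the 85 (18.8%, beside 15.1% of all tested genes). Fits with fewer samples have fewer degrees of freedom, and the cause of these changes in count was not tested.

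The replicate numbers did not pair the samples: 10 same-numbered pairs correlated at -0.078 to 0.24 (median 0.039), and 3 of 12 samples were closest to a sample of their own number. No scaling moved the median of all genes by over 0.1 on the log2 scale. Low counts limit Nqo1 and Prdx1. The intervals of Slc7a11 and Nfe2l2 were the widest among the tested genes of the set, and the part of low counts in this was not tested.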
